A study of Mus musculus with 24 samples.

Results

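The comparison described here set 4 conventional mice given long-chain β2→1-fructan (inulin) against 4 conventional mice given short-chain β2→1-fructan (oligofructose), 8 of the 24 arrays of the series. It covers every gene that the array reads with a probe set carrying a single gene symbol, 18820 genes in all. All 8 animals were male C57BL/6OlaHsd mice with a specified-pathogen-free flora, bought from a commercial supplier at 8 weeks of age and kept on the D12450B diet. Over 5 days each mouse received a daily gavage of 10 mg of its fructan in sterile water, and total RNA of its terminal ileum was hybridised to 1 Affymetrix Mouse Gene 1.1 ST array. A further 4 conventional mice given water serve below to show where each level lay without a fructan. The same comparison in 4 germ-free mice given long-chain and 4 given short-chain β2→1-fructan shares no array with it. Those mice came from a different breeding colony, and their long-chain preparation had been irradiated while their short-chain preparation had been filtered. In strain, sex, age and diet the water mice and the germ-free mice matched the 8 animals above. They too were gavaged daily for 5 days, the germ-free fructan groups with 10 mg. The labels do not say how the mice were caged, so p-values measure the spread among these mice only.

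Both β2→1-fructans are chains of fructose units with the same linkage and differ in the length of the chain. Mammalian enzymes do not cleave this linkage, whereas many gut bacteria ferment it. The ileal wall holds absorptive enterocytes, mucus-secreting goblet cells, Paneth cells that release antimicrobial proteins, and immune cells, vessels and muscle beneath them. Interleukin-22 from innate lymphoid cells acts on the epithelium through the transcription factor STAT3 and induces genes of defence and glycosylation, among them Retnlb, Fut2, the Reg3 genes and the feedback inhibitor Socs3. Interferons, sterol depletion and low oxygen likewise each induce a known set of genes, and these sets order the description below.

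The levels are log2 values, on which a difference of 1 is a 2-fold change. Median levels of the 8 arrays lay between 4.94 and 4.98, and any pair of them correlated across genes with r between 0.9926 and 0.9953, with pairs across the groups (0.9929 to 0.9953) no less alike than pairs within. Among defining genes of the labelled tissue, Fabp6, the ileal bile acid binding protein, had levels of 12.54, 12.59, 12.57 and 12.57 in long-chain mice and 12.44, 12.52, 12.59 and 12.44 in short-chain mice. The enterocyte gene Vil1 (mean 11.6 in both groups), the goblet cell mucin Muc2 (12.7 in both) and the Paneth cell gene Lyz1 (12.98 in long-chain and 12.92 in short-chain mice) were read in all 8 mice too. Levels of different probe sets cannot be ranked against each other, so these values do not grade the tissue. The RNA came from whole tissue, so fewer cells of a type and less RNA per cell cannot be told apart in any of the values that follow.

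Between the ileum of mice given long-chain and of mice given short-chain β2→1-fructan few genes passed a call, and the differences were small. A gene is called here at an unadjusted p under 0.01 with a fold change over 1.3. By this rule 40 of 18820 genes passed (0.213%). In long-chain mice 22 of them stood higher (0.117%) and 18 lower (0.0956%). Cyclic loess normalization of the same values turned this split to 17 higher and 24 lower. No gene passed a Benjamini-Hochberg adjusted p of 0.05, and the smallest adjusted p from limma was 1.00. At an unadjusted limma p under 0.05 there were 684 genes (3.63%), against 941 that a flat distribution of p would give. At one under 0.01 there were 120, against 188. The 4 long-chain mice were all above the 4 short-chain mice for 247 genes (1.31%) and all below them for 205 (1.09%), and 18 of the 40 called genes were among these. Together these were 2.40% of genes, while 2.86% of the orderings of 4 against 4 mice separate the groups. Lack of overlap was thus no more frequent than chance gives. Only 5 called genes remained called whichever of the 8 mice was left out, namely Retnlb, Spata45, Alyref2, Dsc3 and Ifnl2. No difference reached 2.5-fold, and 4 genes exceeded 2-fold. The 95% interval of the difference lay wholly within 1.5-fold in either direction for 96.6% of genes and within 2-fold for 99.7%. Its half-width was 0.23 on the log2 scale at the median gene. As 43.1% of all genes had a mean level under 5 over the 8 mice, these shares include many dim genes. They do not speak for brighter genes alone.

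Among the genes that respond to interleukin-22, Retnlb stood lowest of all called genes after long-chain β2→1-fructan. Retnlb encodes resistin-like molecule β, a protein that goblet cells secrete against bacteria and worms. Its level was 4.32, 4.06, 4.58 and 4.95 in the 4 long-chain mice, against 5.79, 5.17, 5.45 and 6.60 in the 4 short-chain mice. The groups did not overlap. Retnlb fell by 1.27 on the log2 scale (SE 0.30, 95% interval -1.89 to -0.66), which is 2.42-fold, with an exact permutation p of 0.029, the smallest that 4 against 4 mice allow. The water mice ranged more widely than either fructan group, at 3.56, 4.97, 5.70 and 4.26. Against water the difference was -0.15 for long-chain and 1.13 for short-chain β2→1-fructan, 2 values that share the water mice, and only the second was called.

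Fut2, the fucosyltransferase that puts terminal fucose on epithelial glycans, and Duox2, the epithelial oxidase that makes hydrogen peroxide at the mucosal surface, were not called. Fut2 had levels of 7.03, 6.71, 6.40 and 6.80 in long-chain mice and 7.49, 7.31, 6.42 and 7.45 in short-chain mice, a difference of -0.43 (SE 0.21, unadjusted limma p of 0.051, exact permutation p of 0.17). Duox2 had levels of 9.13, 9.18, 9.56 and 9.26 in long-chain mice, against 10.20, 9.80, 8.70 and 10.06 in short-chain mice, a difference of -0.41 (SE 0.20, exact permutation p of 0.26). For both genes short-chain mouse 3 stood apart below the other short-chain mice, inside the range of the long-chain group for Fut2 and under it for Duox2. Duoxa2, whose product lets Duox2 mature, was low in the same mouse, at 8.06, where the other short-chain mice had 9.96, 9.76 and 10.01. Reg3b and Reg3g, the abundant antibacterial lectins, differed by -0.06 each (SE 0.11 each), with 95% intervals of -0.28 to 0.16. Of the 18 measured genes on the list of responders to interleukin-22, 7 were higher and 11 lower after long-chain β2→1-fructan, with a median difference of -0.06 where the median of all genes was 0.00. The called members were Retnlb, lower, and Socs3, higher. At an unadjusted limma p under 0.05 there were 4 members, Retnlb lower and Socs3, Reg3a and S100a9 higher. Over all genes 0.213% were called and 3.63% had an unadjusted limma p under 0.05. The list thus did not move one way.

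Socs3, the inhibitor that STAT3 induces to end its own signal, was higher after long-chain β2→1-fructan. Its level was 7.68, 6.97, 6.79 and 7.05 in long-chain mice, against 6.25, 6.72, 5.71 and 5.85 in short-chain mice. The groups did not overlap, though the lowest long-chain mouse and the highest short-chain mouse were close. Socs3 rose by 0.99 on the log2 scale (SE 0.33, 1.98-fold, exact permutation p of 0.029), and it was called in 5 of the 8 fits that left out a mouse. The call was lost without long-chain mouse 1 (0.80), short-chain mouse 3 (0.85) or short-chain mouse 4 (0.89). Tat, the tyrosine aminotransferase best known as a hormone-induced liver enzyme, had levels of 9.67, 8.07, 8.03 and 8.47 in long-chain mice and 7.98, 8.38, 6.69 and 7.04 in short-chain mice. It rose by 1.04 (SE 0.35, 2.06-fold), the largest rise of all called genes, with overlapping groups and an exact permutation p of 0.11, and it lost the call without the same 3 mice (0.67, 0.76 and 0.88). Tifa, an adaptor that links sensing of bacterial sugars to NF-κB, had levels of 9.22, 8.41, 8.83 and 8.20 in long-chain mice and 8.21, 8.55, 7.66 and 7.35 in short-chain mice. It rose by 0.72 (SE 0.24, 1.65-fold), again with overlapping groups and an exact permutation p of 0.14. Its call went without any of these 3 mice (0.54, 0.63 and 0.53) or without long-chain mouse 3 (0.67).

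The 3 genes divided the mice in similar ways inside the groups. Long-chain mouse 1 was the highest of its group for Socs3, Tat and Tifa, and short-chain mice 1 and 2 were above mice 3 and 4 for all 3. Among water mice the spread was as wide as the difference between the fructans. Socs3 had levels of 5.51, 7.46, 7.73 and 5.71 in water mice, so that water mice 2 and 3 exceeded all short-chain mice and the other 2 lay near or below the lowest of these. Tat (6.69, 7.98, 8.41 and 7.07), Tifa (6.98, 8.22, 8.27 and 7.90), Fut2 (5.61, 6.45, 6.71 and 5.87) and Retnlb were likewise highest in water mice 2 and 3, a pattern noticed after the values were seen. What these mice had in common was not tested. The promoter of Socs3 is printed because it carries the element that STAT proteins bind. It covers 300 bases around the RefSeq start of the gene, most of them before it (GRCm38.p6, chr11:117969317-117969616, minus strand), and the capitals mark the 1 match to TTCNNNGAA, searched on both strands:
Socs3 promoter: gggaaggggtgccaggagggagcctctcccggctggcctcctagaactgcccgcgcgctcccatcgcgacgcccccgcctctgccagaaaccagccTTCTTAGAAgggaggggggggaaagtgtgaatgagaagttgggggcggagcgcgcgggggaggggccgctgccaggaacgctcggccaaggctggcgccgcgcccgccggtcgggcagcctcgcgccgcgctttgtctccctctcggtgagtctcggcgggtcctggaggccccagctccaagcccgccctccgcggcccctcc
This pattern occurred in 8.3% of the 32851 RefSeq promoters of the same length. Among the called genes with an entry (34 of 40) it occurred in 4, Socs3, Spata45, Zfp455 and Zfp459, and among the responders to interleukin-22 with an entry (14 of 18) in 2, Socs3 and Reg3b. Here and below a gene counted if any of its promoter entries matched. Shares of genes and shares of all promoters are therefore not like measures.

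**Figure D1:**
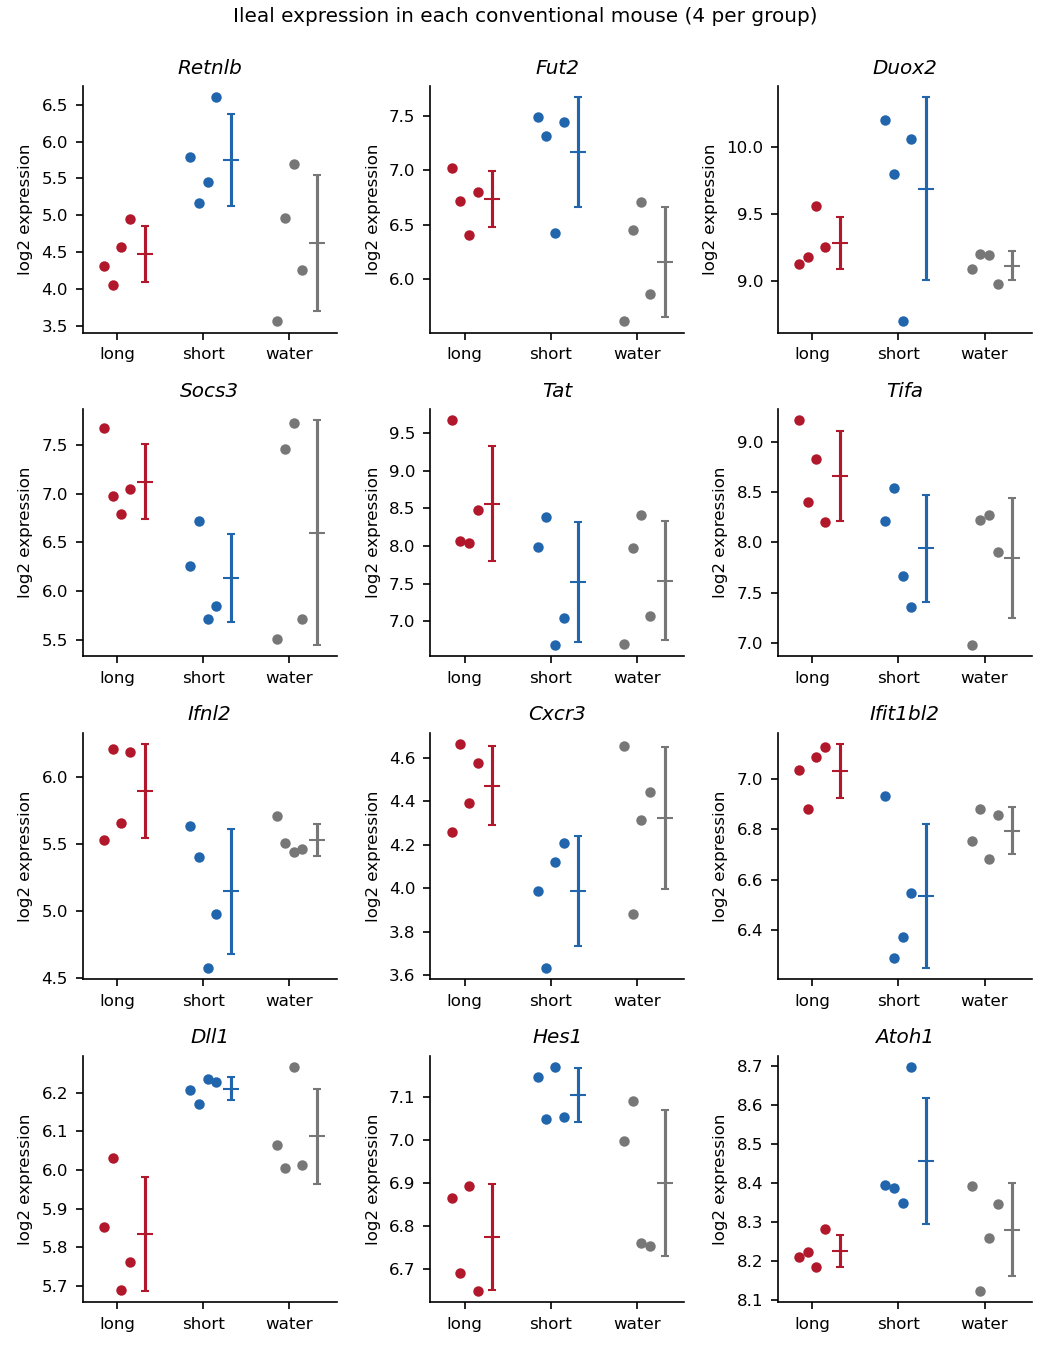
Log2 expression (vertical axes) of 12 genes in each conventional mouse, with long-chain mice on the left, short-chain mice in the middle and water mice on the right; points are mice and bars give the mean with the SD of 4 mice. Retnlb is lower in all 4 long-chain mice than in any short-chain mouse, Socs3 is higher in all 4, and water mice span from 5.51 to 7.73 for Socs3.

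Ifnl2, which encodes an interferon λ that acts mainly on epithelial cells, was higher after long-chain β2→1-fructan. Its level was 5.53, 6.21, 5.66 and 6.19 in long-chain mice, against 5.63, 5.40, 4.58 and 4.98 in short-chain mice. The groups overlapped through 1 mouse of each. Ifnl2 rose by 0.75 (SE 0.18, 1.68-fold, exact permutation p of 0.057), and the gene stayed called without any 1 of the 8 mice. Water mice lay between, at 5.71, 5.51, 5.44 and 5.46, in a far narrower range. The closely related Ifnl3 was not analysed here, since its probe set is shared with Ifnl2. Il10rb, a chain of the interferon λ receptor, differed by 0.04 (SE 0.07).

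None of the listed genes that interferons induce was called. Of 22 measured interferon-stimulated genes 7 were higher and 15 lower, with a median difference of -0.08 that rested on single mice (-0.18 without short-chain mouse 2 and 0.13 without short-chain mouse 4). Ifit1bl2, a member of the antiviral Ifit family that is not on that list, was called. It had levels of 7.04, 6.88, 7.09 and 7.13 in long-chain mice and 6.93, 6.29, 6.37 and 6.55 in short-chain mice, a rise of 0.50 (SE 0.14, 1.41-fold, exact permutation p of 0.057). Its relative Ifit3 had a difference of 0.25 (SE 0.17) and was not called. Genes of the response to interferon-γ were higher in 16 of 18 cases, but by a median of only 0.06. At an unadjusted limma p under 0.05 there was 1 member, the ubiquitin-like modifier Ubd, where 3.63% of all genes were under this limit. The mean of this list, centred over the 12 conventional mice, was -0.06, 0.33, 0.34 and -0.16 in long-chain mice and 0.61, -0.17, -0.24 and -0.12 in short-chain mice. Short-chain mouse 1 was thus the highest of all, and long-chain mice 2 and 3 followed. The median of the list was 0.27 without short-chain mouse 1 and -0.01 without short-chain mouse 3. Ubd itself had levels of 4.30, 5.12, 4.82 and 3.80 in long-chain mice and 4.99, 3.45, 3.61 and 3.94 in short-chain mice. Cxcr3, the receptor through which T cells and natural killer cells follow chemokines induced by interferon-γ, was called without overlap. It had levels of 4.26, 4.66, 4.39 and 4.57 in long-chain mice, against 3.98, 3.63, 4.12 and 4.21 in short-chain mice, a rise of 0.48 (SE 0.17, 1.40-fold, exact permutation p of 0.029). All of these Cxcr3 levels were under 5, a dim range. The call for Cxcr3 was lost without long-chain mouse 2, 3 or 4 or short-chain mouse 1 or 2 (differences of 0.37 to 0.51), and that for Ifit1bl2 without short-chain mouse 2 (0.41).

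No listed gene of antigen-presenting cells was called. Of 9 measured genes of MHC class II presentation 8 were higher after long-chain β2→1-fructan, with a median of 0.18 (0.08 without short-chain mouse 2). The lower member had the largest difference of the list, -0.33, where the highest member had 0.23. H2-Ab1, a chain of the class II molecule, had levels of 11.24, 11.37, 11.48 and 11.22 in long-chain mice and 11.34, 10.92, 11.18 and 11.11 in short-chain mice. The difference was 0.19 (SE 0.09, exact permutation p of 0.11), with short-chain mouse 1 inside the long-chain range. Of 17 macrophage and dendritic cell genes 11 were higher and 6 lower, with a median of 0.12 (0.07 without short-chain mouse 3). Itgax, which encodes the integrin CD11c, was without overlap at 6.43, 6.35, 6.31 and 6.25 in long-chain mice, against 6.03, 6.13, 5.86 and 6.13 in short-chain mice, a difference of 0.30 (SE 0.12). Clec9a, the receptor for dead cells on cross-presenting dendritic cells, was also without overlap, at 4.32, 4.19, 4.38 and 4.32 in long-chain mice, against 3.94, 4.03, 3.96 and 4.15 in short-chain mice, a difference of 0.28 (SE 0.13). Outside the lists, and chosen after its values were seen, Aldh1a2 showed no overlap. This gene makes the enzyme with which gut dendritic and stromal cells produce retinoic acid. Its levels were 5.87, 6.09, 5.93 and 6.23 in long-chain mice and 5.76, 5.61, 5.61 and 5.78 in short-chain mice (difference 0.34, SE 0.12, fold 1.27).

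Of 17 genes of T cells and intraepithelial lymphocytes 13 were higher, with a median of 0.05 and none called, and of 11 B cell genes 8 were higher, with a median of 0.06 and none called. Cd8a had a difference of 0.30 (SE 0.17) and Cd3e one of 0.16 (SE 0.17). Ms4a1, the B cell gene for CD20, had levels of 3.98, 4.13, 3.84 and 3.83 in long-chain mice and 3.33, 3.97, 4.01 and 3.40 in short-chain mice, a difference of 0.27 (SE 0.24).

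No listed gene of Notch signalling or the secretory lineage was called. The 3 given first were picked after values were seen, for their lack of overlap. Dll1, the Notch ligand that secretory progenitors display, had levels of 5.85, 6.03, 5.69 and 5.76 in long-chain mice, against 6.21, 6.17, 6.24 and 6.23 in short-chain mice. The groups did not overlap, and at a difference of -0.38 (SE 0.10, unadjusted limma p of 0.00057, exact permutation p of 0.029) the gene missed the call at a fold of 1.298. Hes1, the Notch target that holds progenitors to the absorptive fate, had levels of 6.86, 6.69, 6.89 and 6.65 in long-chain mice and 7.15, 7.05, 7.17 and 7.05 in short-chain mice. It did not overlap either, with a difference of -0.33 (SE 0.11). Atoh1, the transcription factor that all secretory cells require and that Hes1 represses, had levels of 8.21, 8.22, 8.18 and 8.28 in long-chain mice and 8.39, 8.39, 8.35 and 8.70 in short-chain mice. The difference was -0.23 (SE 0.08), with no overlap. Jag1, another Notch ligand, and Hes5, another target, lay without overlap on the other side, at differences of 0.16 and 0.19.

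The goblet cell list held Atoh1 and gave a like picture at a small scale. Of its 10 measured members 8 were lower, none called, with a median of -0.11. Besides Atoh1, Spdef, which matures goblet cells, had a difference of -0.22 (SE 0.09), and Spink4, a secreted protease inhibitor, one of -0.25 (SE 0.11). The most abundant goblet cell product did not follow. Muc2, the main secreted mucin, differed by -0.01 with a 95% interval of -0.11 to 0.09. A list of 28 genes of Notch signalling and the secretory lineage was written after values were seen. In it 21 members were lower and 7 higher, with a median of -0.06, which was -0.02 without short-chain mouse 1. At an unadjusted p under 0.05 there were 7, all lower, the remaining ones being Foxa3 (difference -0.31), Foxa1 (-0.29) and Creb3l1 (-0.26), transcription factors of secretory cells. Over all genes 3.63% were under this limit. As the members were chosen with values known, nothing about the lineage can be read from this count. Paneth cell genes were evenly divided, with 5 of 10 higher and a median of 0.00.

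Cholesterol synthesis genes were lower after long-chain β2→1-fructan in 16 of 17 cases, with a median of -0.18 and none called. That median was -0.28 without long-chain mouse 3 and -0.11 without long-chain mouse 1. Hsd17b7, which acts late in the pathway, had levels of 8.33, 8.55, 8.87 and 8.76 in long-chain mice and 8.93, 9.01, 8.69 and 8.99 in short-chain mice (difference -0.28, SE 0.10, exact permutation p of 0.11). Idi1, the isomerase that makes the second 5-carbon building block, had levels of 8.18, 8.17, 8.71 and 8.43 in long-chain mice and 8.65, 8.72, 8.40 and 8.81 in short-chain mice (difference -0.27, SE 0.10, exact permutation p of 0.17). The list's centred mean shows which mice carried this. It was -0.35, -0.25, 0.16 and -0.04 in long-chain mice and 0.03, 0.08, -0.13 and 0.17 in short-chain mice. Long-chain mice 1 and 2 were lowest, while long-chain mouse 3 was above all short-chain mice but mouse 4. Hmgcs1, the synthase that opens the pathway, had levels of 9.80, 9.82, 10.28 and 9.92 in long-chain mice and 10.14, 10.12, 10.02 and 10.24 in short-chain mice (difference -0.17, SE 0.09). Its promoter (GRCm38.p6, chr13:119690101-119690400, plus strand) is shown as the one promoter found for the list that holds the sterol response element TCACNCCAC, in capitals, searched on both strands:
Hmgcs1 promoter: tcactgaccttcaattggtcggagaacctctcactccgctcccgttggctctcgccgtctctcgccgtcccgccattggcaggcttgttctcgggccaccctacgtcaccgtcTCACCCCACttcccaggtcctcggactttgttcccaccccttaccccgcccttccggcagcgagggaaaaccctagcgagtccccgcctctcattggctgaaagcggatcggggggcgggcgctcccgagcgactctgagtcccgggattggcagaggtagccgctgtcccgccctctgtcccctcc
The element occurred in 1.24% of all promoters and in 1 of the 14 list members with an entry.

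Genes of fatty acid synthesis divided. Scd1, the desaturase that makes oleic acid, was called, with levels of 10.60, 9.70, 10.52 and 10.16 in long-chain mice and 9.04, 9.55, 9.96 and 9.85 in short-chain mice. It rose by 0.64 (SE 0.22, 1.56-fold, exact permutation p of 0.086), with overlap. Its close relative Scd2 had a difference of -0.35 (SE 0.16) and levels of 10.57, 10.94, 11.78 and 11.21 in long-chain mice and 11.43, 11.33, 11.50 and 11.65 in short-chain mice. Of 14 fatty acid synthesis genes 9 were higher and 5 lower, with a median of 0.01. A pair of genes of circulating proteins lay on the same side as Scd1. Serpina1b, an antitrypsin gene with near-identical copies that the probes may not separate, rose by 0.41 (SE 0.13, 1.33-fold), with levels of 8.96, 8.58, 8.73 and 8.36 in long-chain mice and 8.02, 8.37, 8.42 and 8.18 in short-chain mice. Hp, the haemoglobin scavenger haptoglobin, had levels of 5.26, 4.37, 4.50 and 4.13 in long-chain mice and 3.53, 3.98, 4.36 and 3.78 in short-chain mice (difference 0.65, SE 0.24, not called).

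Adipocyte markers varied in the same direction, and fat cells express Scd1 and Hp strongly. Of 9 measured adipocyte markers 8 were higher after long-chain β2→1-fructan, with the highest median of all 50 lists, 0.33, and none at an unadjusted p under 0.05. Without long-chain mouse 1 that median was 0.17. Their centred mean was 0.74, -0.40, 0.13 and -0.28 in long-chain mice, -0.52, -0.42, 0.07 and -0.12 in short-chain mice, and 0.26, 0.12, 0.20 and 0.23 in water mice. Adipoq, which encodes the fat cell hormone adiponectin, had levels of 6.92, 4.73, 5.71 and 4.83 in long-chain mice, against 4.30, 4.97, 5.60 and 5.35 in short-chain mice. Of the 8 mice long-chain mouse 1 was highest for Adipoq, Hp, Scd1 and Serpina1b, and short-chain mouse 1 was lowest for all 4. Without long-chain mouse 1 the differences were 0.52 for Scd1 and 0.31 for Serpina1b, and without short-chain mouse 1 they were 0.46 and 0.33, none of them called. Both calls were also lost without long-chain mouse 3 (0.55 and 0.39), that of Scd1 without short-chain mouse 2 (0.63) and that of Serpina1b without short-chain mouse 4 (0.38). The part of fat tissue in these differences was not tested.

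**Figure D2:**
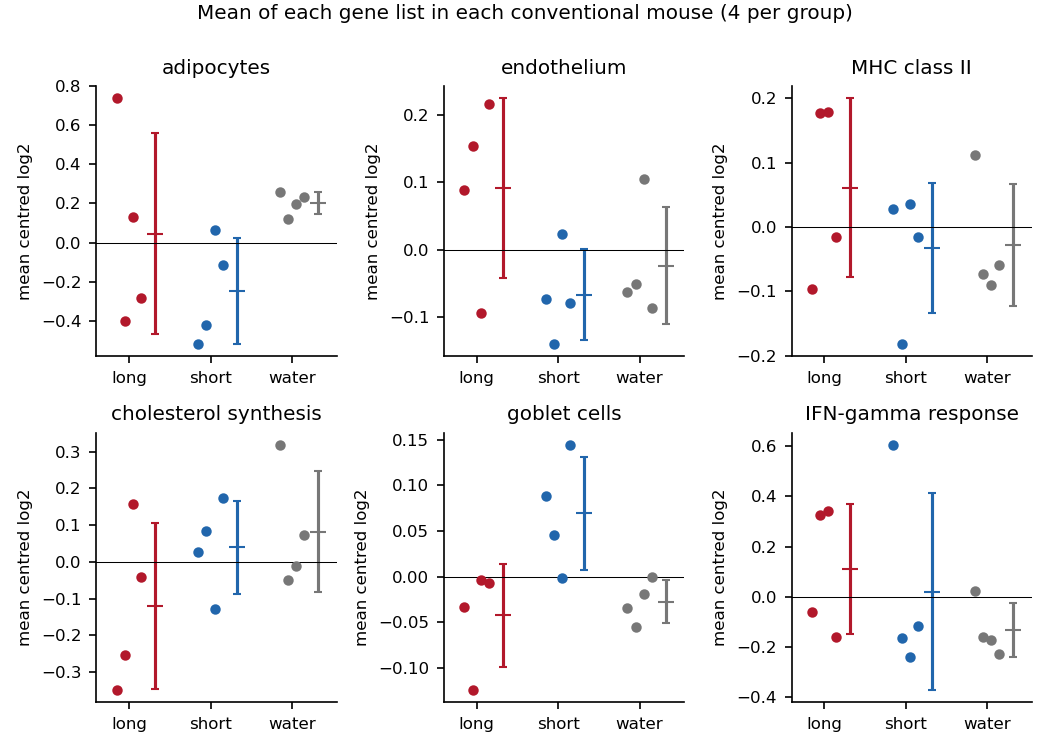
Mean centred log2 value (vertical axes) of the measured members of 6 gene lists in each conventional mouse, with long-chain mice on the left, short-chain mice in the middle and water mice on the right; points are mice and bars give the mean with the SD of 4 mice. Adipocyte genes spread from -0.40 to 0.74 among long-chain mice, and short-chain mouse 1 stands apart at 0.61 for the response to interferon-γ.

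Endothelial genes were higher in 10 of 11 cases, with a median of 0.17 and none called. Emcn, a surface mucin of capillaries and veins, had levels of 6.89, 7.07, 6.73 and 7.15 in long-chain mice, against 6.66, 6.56, 6.86 and 6.49 in short-chain mice (difference 0.32, SE 0.09, fold 1.25, exact permutation p of 0.057). Pecam1, the adhesion molecule CD31, had levels of 7.31, 7.51, 7.07 and 7.49 in long-chain mice and 6.94, 7.03, 7.11 and 7.03 in short-chain mice (difference 0.32, SE 0.10). Long-chain mouse 3 lay in the short-chain range for both genes, and in the list's centred mean it stood at -0.09 where the other long-chain mice had 0.09, 0.15 and 0.22. Smooth muscle genes, from the layer beneath, were higher in 9 of 11 cases by a median of 0.04.

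Genes for handling fructose and glucose were lower in 11 of 12 cases, with a median of -0.09 (-0.02 without short-chain mouse 4) and none called. The fructose transporter gene Slc2a5 differed by -0.09 (SE 0.18, 95% interval -0.47 to 0.29) and Khk, the kinase that starts fructose breakdown, by -0.02 (SE 0.13, interval -0.28 to 0.25). The sign for Khk turned under cyclic loess normalization, and those of Khk and Slc2a5 turned without some single mice. Slc2a2, the basolateral sugar transporter GLUT2, had levels of 4.79, 4.77, 3.81 and 4.51 in long-chain mice, 3.96, 6.03, 5.22 and 4.52 in short-chain mice and 6.59, 5.68, 5.74 and 5.59 in water mice. Both fructan groups were called below the water mice they share, by -1.43 for the long-chain and -0.97 for the short-chain preparation, and the 2 fructans differed by -0.46 (SE 0.33, not called). Sis, the sucrase-isomaltase, differed between the fructans by -0.05 (SE 0.06). Ileal bile acid genes did not differ in a common direction, with 7 of 10 higher and a median of 0.04. The differences of the members ran from -0.49 to 0.10. The mean of the list was the lower one after long-chain β2→1-fructan (-0.02 against 0.01).

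Of the genes known to respond to low oxygen, Ddit4, Ankrd37 and Edn2 were called lower after long-chain β2→1-fructan. They were noticed among the called genes, and the list of 25 measured genes was written after values were seen. Their number on it can therefore not be set against the 0.213% of all genes that were called. Ddit4, an inhibitor of mTOR signalling induced by hypoxia and stress, had levels of 5.56, 5.41, 5.92 and 5.99 in long-chain mice, against 5.99, 5.95, 6.33 and 6.45 in short-chain mice, and fell by 0.46 (SE 0.15, 1.38-fold, exact permutation p of 0.086). Ankrd37, a hypoxia-induced ankyrin repeat gene, had levels of 6.61, 6.94, 6.63 and 6.25 in long-chain mice, against 6.94, 7.25, 7.19 and 6.84 in short-chain mice, and fell by 0.45 (SE 0.15, 1.37-fold, exact permutation p of 0.057). Edn2, the vasoactive peptide endothelin-2, was without overlap at 5.22, 5.71, 5.70 and 5.04 in long-chain mice, against 6.08, 5.79, 5.76 and 6.02 in short-chain mice, and fell by 0.50 (SE 0.17, 1.41-fold, exact permutation p of 0.029). Over the whole list 18 genes were lower and 7 higher, with a median of -0.03, which was -0.10 without short-chain mouse 3. Slc2a1, the glucose transporter GLUT1, differed by -0.31 (SE 0.13) and Egln3, an oxygen-sensing hydroxylase, by -0.26 (SE 0.11), whereas Edn1, endothelin-1, differed by 0.40 in the other direction. Each of the 3 calls depended on several mice. The call was lost without long-chain mouse 1 for all 3 (-0.41 for Ddit4, -0.45 for Ankrd37 and -0.43 for Edn2). It was also lost without long-chain mouse 2 or short-chain mouse 3 or 4 for Ddit4 (-0.41 to -0.36), without long-chain mouse 3 or 4 or short-chain mouse 2 or 3 for Ankrd37 (-0.46 to -0.33), and without long-chain mouse 4 or short-chain mouse 1 or 4 for Edn2 (-0.46 to -0.37). The canonical targets Vegfa, Ldha and Pgk1 were not called. The Ankrd37 promoter (GRCm38.p6, chr8:45999801-46000100, minus strand) shows the core of the hypoxia response element, ACGTG, in capitals at 2 places, searched on both strands:
Ankrd37 promoter: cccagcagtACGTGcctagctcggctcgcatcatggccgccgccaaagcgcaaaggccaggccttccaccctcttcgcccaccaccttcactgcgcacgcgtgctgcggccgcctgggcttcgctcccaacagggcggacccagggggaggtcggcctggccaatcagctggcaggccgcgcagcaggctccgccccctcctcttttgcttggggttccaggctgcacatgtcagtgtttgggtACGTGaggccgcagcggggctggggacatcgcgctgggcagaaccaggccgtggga
The core is short and occurred in 19.6% of all promoters and in 12 of the 34 called genes with an entry. It also occurred in 18 of the 23 list members with an entry, Ddit4 among them. The list was written from genes known to respond to low oxygen, so that number cannot be read as a result of these data.

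The called genes, Cxcr3 among them, were mostly dim. Of the 40 called genes 25 had a mean level under 5 over the 8 mice (62.5%), as did 43.1% of all genes, and 14 lay below the level that 95% of the 990 olfactory receptor genes do not exceed, 3.62. The 10705 genes at 5 or above held 15 called genes, 7 of them higher. Spata45, a gene named for spermatogenesis, had levels of 2.60, 2.65, 2.73 and 2.91 in long-chain mice, against 3.29, 3.38, 3.30 and 2.97 in short-chain mice, without overlap. It fell by 0.51 (SE 0.12, 1.42-fold) in this dim range. Alyref2, a relative of the mRNA export adaptor Alyref, had levels of 5.51, 5.25, 5.42 and 5.38 in long-chain mice, against 6.07, 5.68, 5.88 and 5.79 in short-chain mice. It fell by 0.47 (SE 0.12, 1.38-fold, exact permutation p of 0.029), and the array may not separate it from that relative. Dsc3, a desmosomal cadherin of stratified epithelia, had levels of 3.66, 3.80, 3.59 and 3.73 in long-chain mice and 3.20, 3.42, 3.25 and 3.13 in short-chain mice, and rose by 0.44 (SE 0.12, 1.36-fold) without overlap. Marcksl1, an actin-regulating protein listed with the epithelium over lymphoid follicles, was brighter, at 6.35, 6.62, 6.35 and 6.32 in long-chain mice and 6.80, 6.69, 6.73 and 7.14 in short-chain mice, and fell by 0.43 (SE 0.14, 1.35-fold) without overlap. It was not called without long-chain mouse 1, 3 or 4 or short-chain mouse 4 (-0.41 to -0.33). The zinc finger genes Zfp459, Zfp455 and Zfp235, the testis-type copies Rpl10l and Tuba3b and the skin gene Lce3b also fell, by 0.39 to 0.67. The sperm genes Catsperz and Odf3l1, the p53-regulating kinase gene Trp53rka, the kinase inhibitor gene Inka1, the phosphatidylcholine synthesis gene Pcyt1b and Gdap1l1 rose by 0.39 to 0.48.

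Of 307 measured microRNA genes 1 was called, Mir152, a share near the 0.213% of all genes. The array reads transcripts of the gene and not the mature form. It had levels of 3.40, 3.80, 3.64 and 3.63 in long-chain mice, against 3.18, 3.03, 3.44 and 3.12 in short-chain mice, and rose by 0.42 (SE 0.13, 1.34-fold, exact permutation p of 0.057) in a dim range. It was not called without mouse 2 of either group (0.37 each). The mature product is shown for its seed, bases 2 to 8, in capitals (RefSeq, GRCm38.p6, chr11:96850439-96850459, plus strand):
mmu-miR-152-3p: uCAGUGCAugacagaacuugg

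**Figure D3:**
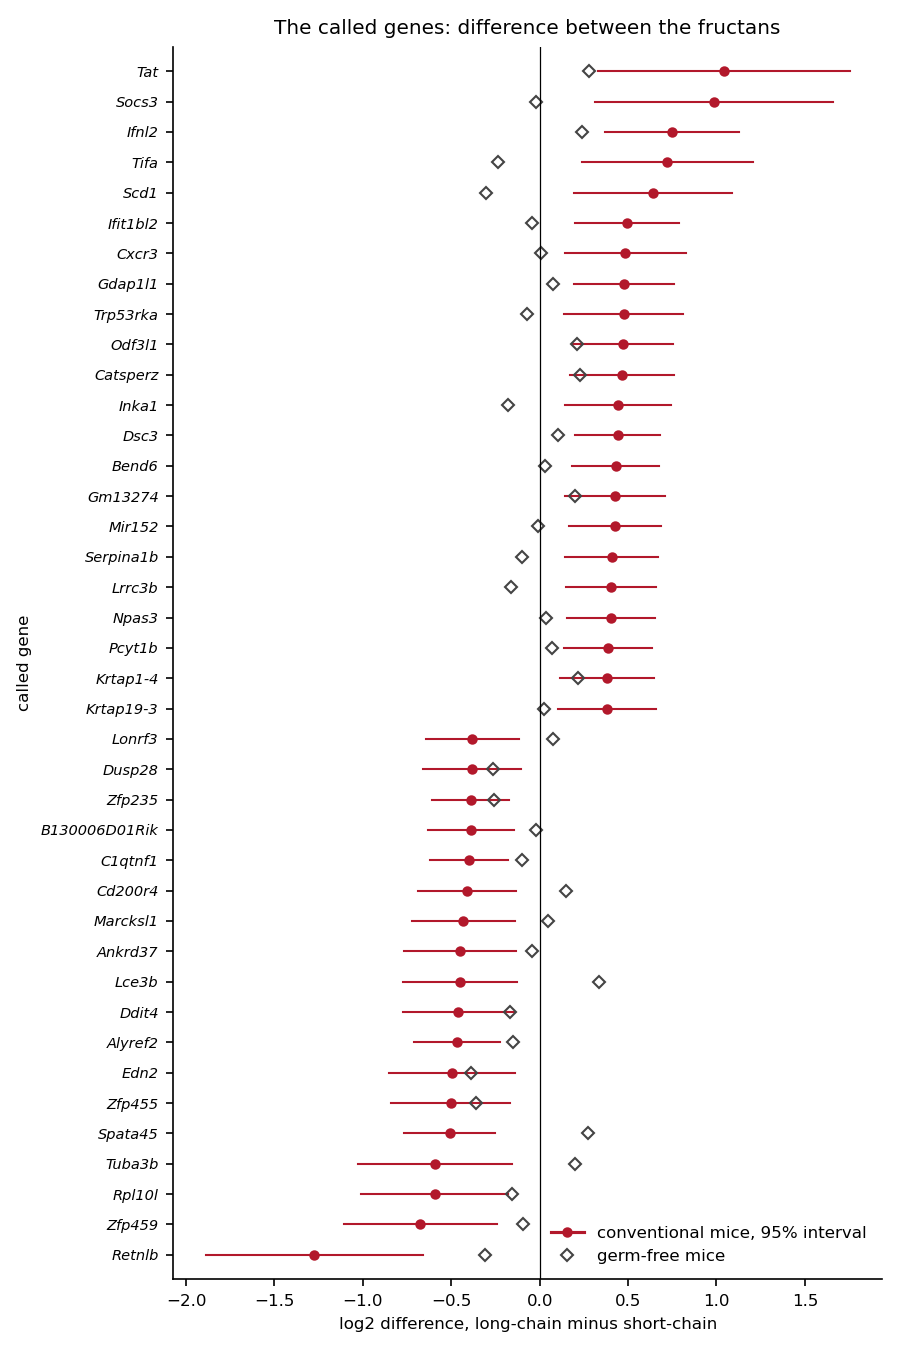
Log2 difference between long-chain and short-chain β2→1-fructan (horizontal axis) for the 40 called genes (vertical axis), as filled points with 95% intervals for conventional mice and open diamonds for germ-free mice. Retnlb lies lowest at -1.27 and Tat highest at 1.04 in conventional mice, and 25 of the 40 diamonds are on the same side of zero as their point.

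Water mice lay between the fructans for most of the called genes. The mean of the water mice, which the call did not use other than for the spread, lay between the means of the 2 fructan groups for 36 of the 40 genes, as it did for 30.2% of all genes, a share not comparable with genes picked for a wide gap. It was nearer to the long-chain mean for 22 genes and nearer to the short-chain mean for 18. Against water, 3 of the 40 were called after long-chain β2→1-fructan (Tat, Tifa and Lonrf3), where 0.313% of all genes were, and 6 after short-chain β2→1-fructan (Retnlb, Scd1, Serpina1b, Marcksl1, Bend6 and Mir152), where 0.409% were, and 31 after neither. The 40 were chosen on the same fructan arrays, so nothing about them can be read from these counts. Scd1, for example, had levels of 10.40, 10.16, 10.12 and 10.53 in water mice, a difference of -0.06 for long-chain and -0.70 for short-chain β2→1-fructan, while Tifa differed from water by 0.82 and 0.10.

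The same comparison in germ-free mice used an irradiated long-chain and a filtered short-chain preparation. There 265 genes passed the same call (1.41%). Of these, 139 stood higher and 126 lower in the long-chain group, none passed adjustment, and none was among the 40. With shares this small, an overlap of 0 says nothing about the 40 genes. Of the 40 genes 25 had the same sign in germ-free mice and 15 the opposite one, where 52.5% of all genes had the same sign. Across all genes the differences in the 2 kinds of mice correlated with r = 0.03, a description over genes that are not independent. The largest of the 40 germ-free differences was 1.31-fold.

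In a direct test of whether the fructan difference changed between conventional and germ-free mice, 200 genes (1.06%) passed the same call. None had an adjusted p under 0.05, the smallest adjusted p from limma being 0.44, for Pmepa1. Pmepa1, an inhibitor of TGF-β signalling, had levels of 8.10, 8.10, 8.13 and 8.18 in long-chain mice and 8.38, 8.39, 8.27 and 8.26 in short-chain mice, a difference of -0.20, against 0.34 in germ-free mice. Of the 40 called genes 8 were also called here, Spata45, Lce3b, Cd200r4, Tifa, Scd1, Inka1, Lrrc3b and Serpina1b. The 40 were chosen on the conventional difference, which this test contains, so nothing about them can be read from this count. Tifa had a difference of 0.72 in conventional and -0.24 in germ-free mice (interaction 0.96, SE 0.33, adjusted limma p of 0.68). Aldh1a2 had 0.34 against -0.38 (interaction 0.73, SE 0.17), Clec9a 0.28 against -0.44 (0.72, SE 0.18) and Itgax 0.30 against -0.19 (0.48, SE 0.16). Aldh1a2, Clec9a and Itgax were named above for their conventional difference and are not the most extreme calls of this test. Those also included Apol7c, BB014433, Slc4a11 and Tmem182, whose values are not given here. Creb3l1, the transcription factor of secretory cells, had -0.26 against 0.51 (interaction -0.78, SE 0.18). Retnlb had -1.27 against -0.31 and was not called in this test (interaction -0.97, SE 0.42). As no gene passed adjustment, a difference between the 2 kinds of mice was shown neither for Retnlb nor for the called genes. Adipocyte markers had a median of 0.33 in conventional and of -0.35 in germ-free mice, and Scd1 and Hp, at interactions of 0.94 (SE 0.31) and 1.07 (SE 0.34), had the same signs as these markers in both. Origin of the colony and irradiation of the long-chain preparation cannot be told apart from the absence of microbes in these values.

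**Figure D4:**
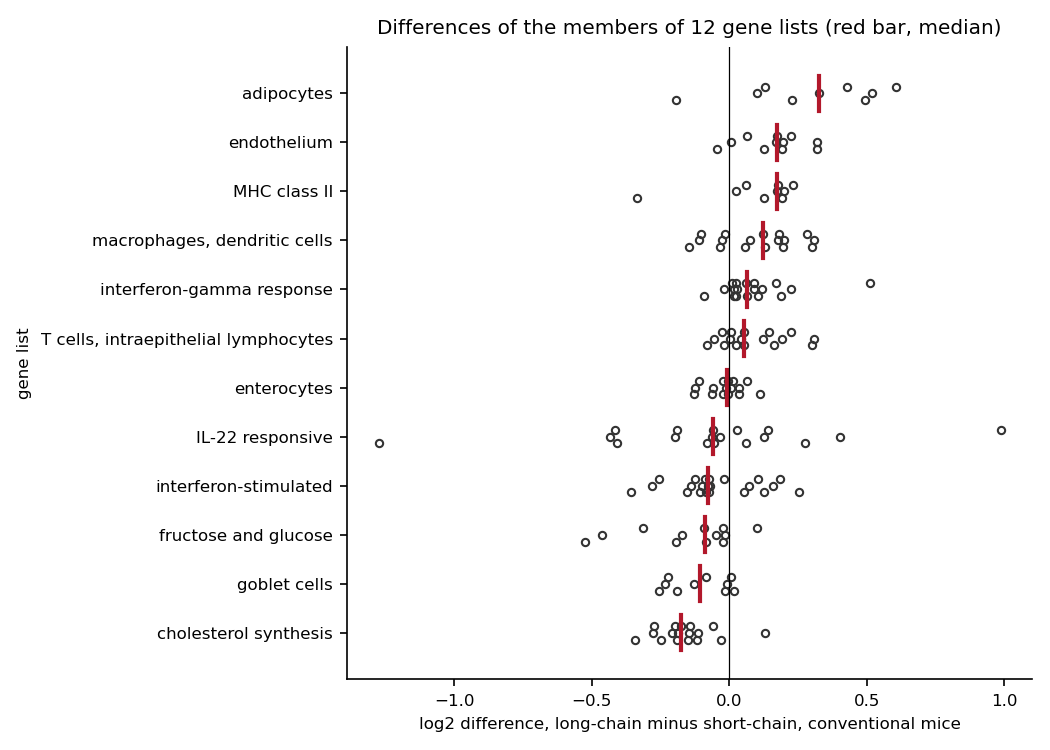
Log2 difference between long-chain and short-chain β2→1-fructan in conventional mice (horizontal axis) for each measured member of 12 gene lists (vertical axis), with points for genes and a red bar at the median. Medians run from -0.18 for cholesterol synthesis to 0.33 for adipocyte markers, and the list of responders to interleukin-22 is spread by Retnlb at -1.27 and Socs3 at 0.99.

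Over the 50 lists with at least 3 measured genes the medians ran from -0.18 for cholesterol synthesis to 0.33 for adipocyte markers. Of these lists 5 held a called gene, where 0.213% of all genes were called. Enterocyte markers (median -0.01, 16 genes) and Paneth cell genes (0.00, 10 genes) lay within 0.02 of the median of all genes, and none of them was called.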

How the data were processed

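Per the submitters' processing notes, the authors made the deposited values from Affymetrix Mouse Gene 1.1 ST arrays by RMA (background correction, quantile normalization and summary of probes), giving log2 expression values, 1 array per mouse. The methods name remapped probe sets, whereas the deposited rows carry the manufacturer's numbers. Of 35556 rows, 21218 carried a single gene symbol. For the 1386 genes with several probe sets the one with the highest mean was kept, giving 18820 genes. No depth applies to arrays, and the number of mice limits the precision.

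All 24 arrays in 6 groups were fitted together in limma 3.58.1 (R 4.3.3) with an intensity-dependent prior, and the differences were taken as contrasts. Genes were called at an unadjusted p under 0.01 with a fold over 1.3, and Benjamini-Hochberg adjustment ran over all genes. Permutation tests were exact, two-sided and over the 70 orderings of 4 against 4 mice, with 0.029 as the smallest p. Named genes were the 10 highest and 10 lowest called, those called without any 1 mouse, called list members, the list members of smallest p, genes of the study's text and interaction calls. Others were chosen after their values were seen. The comparison and the gene lists were chosen with earlier results of these data known. Of 10 further lists tried after values were seen, 2 were kept. Sequences came from RefSeq tables (GRCm38.p6). The fitting code was tested on simulated data. Alternatives covered normalization, prior, weights, dim genes, probe set choice, the arrays fitted, a replicate block and single mice left out.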

Additional observations from a re-analysis of the deposited data

Results flagged for a closer look

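Single mice stood apart from the other 3 of their group by more than Dixon's limit for 4 values. Of 212 groups checked 8 were past it, and chance flags about 1 in 20. Marcksl1 had 6.62 in long-chain mouse 2, against 6.32 to 6.35 in the others, and Slc2a1 had 7.62 in the same mouse, against 8.31 to 8.32. In short-chain mouse 3, Fut2 had 6.42 (others 7.31 to 7.49), Duoxa2 had 8.06 (others 9.76 to 10.01) and Hes5 had 4.9 (others 4.99 to 5.00). Atoh1 had 8.7 in short-chain mouse 4 (others 8.35 to 8.39), and the dim gene Lrrc3b had 2.98 in short-chain mouse 2 (others 3.23 to 3.25). The mean of the genes of the response to interferon-γ was 0.606 in short-chain mouse 1 and -0.238 to -0.117 in the others.

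For some of the genes above, the change in the fructan difference between conventional and germ-free mice passed the same limits of p and fold in limma. None of these passed adjustment over all genes. Genes named above for their conventional difference carry it into this test. As conventional minus germ-free values on the log2 scale, the immune and stromal genes gave 0.726 for Aldh1a2, 0.719 for Clec9a, 0.485 for Itgax, 0.959 for Tifa and 0.715 for Edn1. The genes that fat or liver cells also express gave 1.07 for Hp, 0.944 for Scd1 and 0.506 for Serpina1b. Transcription factors of secretory cells gave -0.776 for Creb3l1 and -0.397 for Foxa1, and Pmepa1 gave -0.541. The remaining values were -0.784 for Spata45, -0.789 for Lce3b, -0.56 for Cd200r4, 0.624 for Inka1 and 0.565 for Lrrc3b.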

How the results depend on the processing

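Between 35 and 55 genes were called in conventional mice under every alternative that kept all mice, but for 1. With genes of a mean under 5 left out, 10645 genes were tested. Of these, 14 were called in conventional mice, 97 in germ-free mice and 104 in the comparison of both. All of them were also called with the dim genes kept. In conventional mice the 14 were all of the 40 called genes that were still tested. Of those 40, 62.5% had a mean level under 5 over the 8 mice, against 43.1% of all genes. Leaving out single mice gave 50 to 92 genes (92 without long-chain mouse 3, 82 without short-chain mouse 3, 64 and 63 without mouse 4 of either group) and kept 21 to 28 of the 40. The range was 184 to 455 in germ-free mice and 146 to 315 in the comparison of both, the highest without germ-free long-chain mouse 1 (455 and 315). The cause was not tested. Conventional long-chain and short-chain mice of the same number did not deviate together (r of -0.12, -0.06, -0.05 and -0.01). Mice of different numbers were not compared, so these values cannot exclude a pairing. With the replicate number as a block 43, 269 and 217 genes were called. No called gene turned its sign. Muc2 turned to 0.007931 with array weights and ranged from -0.03367 to 0.02465 without single mice. Khk turned to 0.001035 with cyclic loess and ranged from -0.1038 to 0.04197. Slc2a5 ranged from -0.1938 to 0.04308. The median of liver-type plasma proteins was 0.10, and 0.33 without dim members.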
